A study of Mus musculus with 2 samples.

Results

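The genes described here are 8 components of caspase activation and death receptor signalling, of 32285 measured genes: Casp8, Casp9, Apaf1, Cflar, Fadd, Ripk1, Xiap and Diablo. The 8 were chosen by name for their known roles, with earlier results of these data known, and found by symbol in both count matrices. They were followed in immune cells from mouse lymph nodes, profiled as single cells in droplets by a 3′ method whose unique molecular identifiers (UMIs) count each captured transcript once. The wild-type group (WT) and the group with a conditional knockout of Rpa1 (CKO) were both on the C57BL/6 background, with 1 library each. The labels name neither the driver of the deletion, nor the deleted exons, nor the age of the mice, nor how many mice were pooled. With 1 library per genotype no test was possible. The 95% intervals given in parentheses are exact for the number of UMIs or cells counted. They leave out differences between animals and any spread between cells beyond counting.

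Death receptors of the tumour necrosis factor family recruit the adaptor FADD, which binds caspase-8 through shared death effector domains and so starts the extrinsic route to apoptosis. FLIP, the product of Cflar, is a relative of caspase-8 without protease activity that competes for the same complex, and RIPK1 is the kinase of the tumour necrosis factor receptor complex. In the intrinsic route, cytochrome c released from mitochondria binds APAF1, which then activates caspase-9. XIAP inhibits caspases, among them caspase-9, and DIABLO, released from mitochondria, relieves that inhibition. In lymphocytes caspase-8 and FADD are also needed for expansion after stimulation, where caspase-8 restrains necroptosis driven by RIPK1.

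Cells were gated on raw UMIs. T cells held at least 2 UMIs of Cd3d, Cd3e and Cd3g together and none of Cd79a, B cells at least 2 of Cd79a and none of Cd3e, and NK cells at least 1 of Ncr1 and none of Cd3e. The T gate held 7715 WT and 3531 CKO cells, the B gate 2754 and 7319, and the NK gate 81 and 236. Within the T gate, cells with Cd4 only (2803 and 1347), Cd8b1 only (2779 and 459), Foxp3 without Cd8b1 or Trdc (223 and 199) and Trdc only (83 and 279) are called CD4, CD8, Foxp3 and Trdc cells after these transcripts. A further 1295 WT and 575 CKO T cells had none of the 4 transcripts, and 532 and 672 had other combinations. The gates fitted their markers: of 6 B cell markers the summed level was 4888 CPM (UMIs of a gene scaled to 1000000 UMIs of the gate) in WT and 5080 CPM in CKO B cells, against 22.0 and 39.6 CPM in T cells. The 6 T cell markers summed to 4237 and 4284 CPM in T cells and to 68.6 and 53.3 CPM in B cells, where Cd3e was at 0 by the gate. NK cells held 299.8 and 186 CPM of the B cell markers, none at 0, more than T cells did, and the part of B cell RNA in NK levels was not tested. Some NK cells also met another gate, 8 WT and 17 CKO cells the T gate and 4 and 9 the B gate. In T cells the targeted gene Rpa1 had 40.6 CPM in the WT and 26.3 CPM in the CKO library (ratio, here and throughout CKO over WT, 0.647, 0.590 to 0.709), and in B cells 40.8 and 35.7 CPM (0.875, 0.789 to 0.971). Since the 3′ end may be outside what was deleted, Rpa1 counts do not check the label of a library. The libraries shared 56 cell barcodes.

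Casp8, the initiator caspase of the extrinsic route (ENSMUSG00000026029, build GRCm38, chromosome 1, 58795374 to 58847503, plus strand), had the largest ratio of the members in the T gate taken whole. WT T cells held 119 CPM (6278 UMIs; 116 to 122) and CKO T cells 156 CPM (3466 UMIs; 150.5 to 161), a ratio of 1.31 (1.25 to 1.36). Of the genes measured at a mean of at least 5 CPM, 6.06% had a higher ratio in T cells, so Casp8 lay in the upper tail but not at its end. CKO was the higher library in every T cell subset, with a turn in Trdc cells under one restriction given below. CD4 cells stood at 118 and 154 CPM (ratio 1.30, 1.21 to 1.40) and CD8 cells at 115 and 144 CPM (1.25, 1.13 to 1.39). Foxp3 cells held the highest levels of any gate in both libraries, 154 CPM for WT and 223 CPM for CKO (1.45, 1.21 to 1.73). In Trdc cells the levels were 109.8 and 146 CPM, and the interval of the ratio of 1.33 reached from 0.984 to 1.82. T cells with none of the 4 subset transcripts stood at 134 and 164 CPM (1.22, 1.09 to 1.36). The cycling markers Mki67, Top2a, Ccna2 and Pclaf summed to 87.5 CPM in WT and 136 CPM in CKO over all T cells, to 102 and 70.1 CPM in CD4 cells and to 80.1 and 175 CPM in CD8 cells. Their part in the Casp8 levels was not tested.

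Outside the T cells Casp8 differed less in B cells, and in NK cells the counts were too few to place it. WT B cells held 72.9 CPM (945 UMIs) and CKO B cells 77.9 CPM (2554 UMIs), a ratio of 1.07 (0.992 to 1.15) whose interval did not overlap that of T cells. NK cells held 107 CPM from 52 UMIs and 146 CPM from 210 UMIs, a ratio of 1.36 with an interval of 1.002 to 1.88. Counted as cells with at least 1 Casp8 UMI after every cell had been thinned to 2000 UMIs, Casp8 was found in 20.5% of WT T cells (1576 of 7679; 19.6 to 21.4%) and in 27.1% of CKO T cells (949 of 3508; 25.6 to 28.6%). In B cells the thinned shares were 13.4% and 14.4%. Without thinning they were 49.7% and 55.5% of T cells, at median depths of 6302 and 5792 UMIs, and 26.3% and 27.4% of B cells, at 4037.5 and 3878 UMIs. No lymphocyte lacks these genes by definition, so no background share from free RNA could be read from the members themselves. As a gauge, the B cell gene Cd79b was found in 2.42% of WT and 3.71% of CKO T cells after thinning, against 94.5% and 95.3% of B cells.

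**Figure D1:**
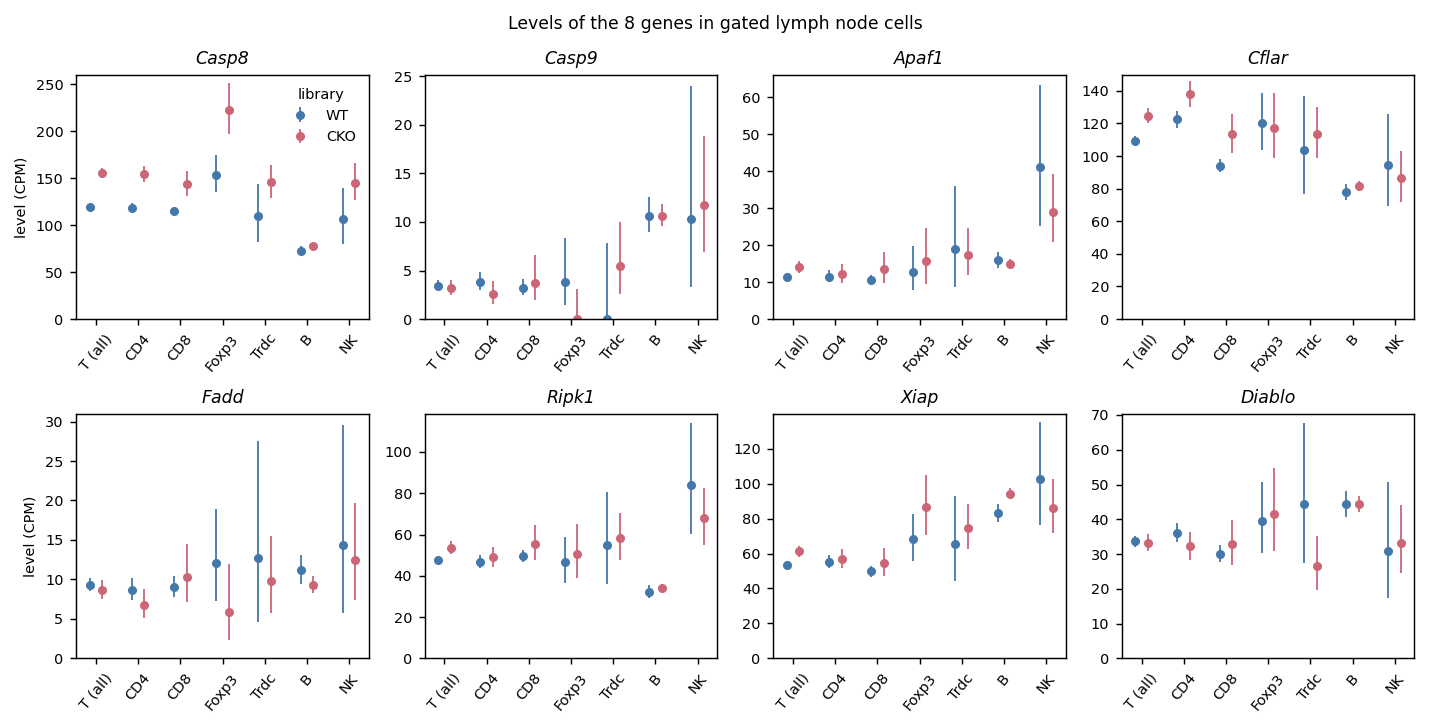
Levels in CPM (vertical axes, from 0) of the 8 genes in each gate (horizontal axes), with WT in blue and CKO in red; points are the summed counts of 1 library and bars the exact 95% Poisson intervals. Casp8 is higher in CKO in T cells (119 and 156 CPM) and their subsets, and close in B cells (72.9 and 77.9 CPM), whereas Casp9 is higher in B than in T cells in both libraries.

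Cflar lies next to Casp8 on the same strand, with 36490 bases between the end of Cflar and the start of Casp8 (ENSMUSG00000026031, chromosome 1, 58711508 to 58758884). Its ratio in T cells was 1.14 (1.09 to 1.19), from 109 CPM (5766 UMIs) in the WT and 125 CPM (2779 UMIs) in the CKO library. Its levels were 123 and 138 CPM in CD4 cells (1.12, 1.046 to 1.21) and 94.1 and 113 CPM in CD8 cells (1.205, 1.07 to 1.35). In Foxp3 cells, where Casp8 was furthest apart, Cflar stood at 120 CPM and 117 CPM, a ratio of 0.978 (0.781 to 1.22). B cells held 77.7 and 81.3 CPM (1.046, 0.973 to 1.13). The number of Cflar UMIs per Casp8 UMI, which does not depend on scaling by totals, was 0.918 in WT and 0.802 in CKO T cells, a ratio of 0.873 (0.821 to 0.929). In Foxp3 cells it was 0.780 and 0.526 (0.674, 0.505 to 0.900), in CD4 cells 1.04 and 0.894 (0.863, 0.780 to 0.956), and in CD8 cells 0.820 and 0.787 (0.960, 0.824 to 1.12). In B cells the 2 libraries were close, at 1.07 and 1.04 (0.979, 0.881 to 1.09). Over all cells of these gates, the inhibitor was thus less abundant relative to Casp8 in the CKO library among CD4 and Foxp3 cells. For CD8 and B cells the intervals held 1. The contrast was smaller in cells without a UMI of Ifit1, Ifit3 or Rsad2, a split described below. There the CKO over WT ratios in CD4 cells were 1.104 (0.9905 to 1.23) for Cflar and 1.16 (1.04 to 1.30) for Casp8. In Foxp3 cells they were 0.916 (0.663 to 1.26) and 1.12 (0.862 to 1.44). The intervals of Cflar and Casp8 overlapped in both gates.

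The windows before the RefSeq starts of these neighbours are shown beside that of Casp9, the initiator caspase of the intrinsic route, because the 3 genes split in base composition. Each run holds the 250 bases before the transcript start given by RefSeq (build GRCm38.p6), 5′ to 3′ on the plus strand, with GC boxes in capitals (GGGCGG or its reverse complement CCGCCC). The Casp8 window lies inside the gene as GENCODE places it, and the bases before the GENCODE start were not searched.
Cflar, chr1:58711241-58711490: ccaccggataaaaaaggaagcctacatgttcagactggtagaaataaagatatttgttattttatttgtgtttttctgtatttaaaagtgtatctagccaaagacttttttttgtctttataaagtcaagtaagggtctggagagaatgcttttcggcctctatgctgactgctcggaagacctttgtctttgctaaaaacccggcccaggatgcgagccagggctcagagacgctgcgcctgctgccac
Casp8, chr1:58802252-58802501: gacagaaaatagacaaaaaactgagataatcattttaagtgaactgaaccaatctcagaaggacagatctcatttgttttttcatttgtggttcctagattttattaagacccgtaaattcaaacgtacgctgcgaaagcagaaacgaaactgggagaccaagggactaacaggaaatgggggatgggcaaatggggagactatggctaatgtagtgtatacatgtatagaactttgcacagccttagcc
Casp9, chr4:141793362-141793611: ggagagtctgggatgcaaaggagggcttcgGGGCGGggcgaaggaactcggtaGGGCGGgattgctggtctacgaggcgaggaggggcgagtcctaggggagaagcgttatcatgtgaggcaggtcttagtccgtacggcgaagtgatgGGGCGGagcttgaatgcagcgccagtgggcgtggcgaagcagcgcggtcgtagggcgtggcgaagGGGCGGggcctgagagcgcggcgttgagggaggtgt
The Casp9 window held 4 GC boxes and 66.0% G or C, and the Casp8 and Cflar windows none, at 39.6% and 42.8%. A GC box was present in 32.7% of the 32851 windows of this length. All 8 genes had at least 1 window in the table, 11 windows in all. Base composition did not follow the levels given below over the whole list. Ripk1, higher in T than in B cells, had 2 and 4 GC boxes in its windows at 60.8% and 69.6% G or C, and Xiap, lower in T cells, had 1 of its 3 windows at 39.2% without a box. These are matches of letters within a short window and say nothing of binding.

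Fadd and Ripk1 link the receptors to Casp8. Fadd (chromosome 7, 144577318 to 144582463, minus strand) was sparse, with 489 WT and 193 CKO UMIs in T cells, at 9.28 and 8.67 CPM (ratio 0.934, 0.786 to 1.11). In B cells it stood at 11.2 CPM from 145 UMIs and 9.30 CPM from 305 UMIs (0.832, 0.680 to 1.02). In CD4 cells it stood at 8.68 and 6.76 CPM (0.779, 0.562 to 1.07), and in Foxp3 cells it rested on 19 and 7 UMIs. No gate set the libraries apart for Fadd beyond counting error. Ripk1 (chromosome 13, 34002363 to 34037147, plus strand) had a ratio of 1.12 (1.048 to 1.204) in T cells, from 47.7 and 53.6 CPM. Its CD4 levels of 46.8 and 49.1 CPM (1.049, 0.929 to 1.18) and CD8 levels of 49.6 and 55.6 CPM (1.12, 0.952 to 1.32) were each within counting error. B cells held 32.4 and 34.0 CPM (1.05, 0.938 to 1.18). Ripk1 overlaps Serpinb6a on the opposite strand, which stood at 16.2 and 17.5 CPM in T cells. No source used here says whether reads were counted by strand, so part of the Ripk1 count could come from that gene.

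Of the intrinsic genes, Apaf1 (chromosome 10, 90989311 to 91082770, minus strand) was higher in CKO T cells and Casp9 (chromosome 4, 141793612 to 141815976, plus strand) was not. For Apaf1 the ratio in T cells was 1.23 (1.07 to 1.42), with 602 UMIs or 11.4 CPM in WT and 314 UMIs or 14.1 CPM in CKO. In CD4 cells it was 11.5 and 12.2 CPM (1.06, 0.823 to 1.35), in CD8 cells 10.46 and 13.4 CPM (1.28, 0.904 to 1.79), and in B cells 15.9 and 14.9 CPM (0.939, 0.796 to 1.11). Casp9 gave 182 WT and 71 CKO UMIs in T cells, 3.45 and 3.19 CPM (0.923, 0.691 to 1.22). In B cells it stood at 10.6 CPM in both libraries (138 and 349 UMIs; ratio 0.819 to 1.23). Casp9 had no UMI in 83 WT Trdc cells or in 199 CKO Foxp3 cells, and no ratio is given there. It overlaps Cela2a and Ctrc on the opposite strand, which together gave 1 UMI in T cells of both libraries.

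The inhibitor Xiap was higher in CKO in both T and B cells, and its antagonist Diablo was close in the libraries. Xiap (chromosome X, 42059679 to 42109656, plus strand) had a T cell ratio of 1.15 (1.08 to 1.23), from 53.1 and 61.2 CPM. It was also higher in CKO B cells, at 83.0 CPM (1076 UMIs) against 94.2 CPM (3089 UMIs), a ratio of 1.14 (1.06 to 1.22). Within CD4 cells it stood at 55.3 and 56.9 CPM (1.03, 0.919 to 1.15) and within CD8 cells at 49.8 and 54.7 CPM (1.099, 0.931 to 1.29). Diablo (chromosome 5, 123509765 to 123524176, minus strand) was nearly level, at 33.6 and 33.3 CPM in T cells (0.991, 0.908 to 1.08) and 44.3 CPM in both libraries in B cells (0.999, 0.906 to 1.102). Diablo UMIs per Xiap UMI were 0.633 in WT and 0.545 in CKO T cells (ratio 0.861, 0.772 to 0.960), and 0.534 and 0.470 in B cells (0.880, 0.780 to 0.993). Diablo relative to Xiap was thus lower in the CKO library in B cells and in the T gate taken whole. Within CD4 cells the ratio was 0.868 (0.721 to 1.04) and within CD8 cells 0.993 (0.757 to 1.30), and both intervals held 1.

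**Figure D2:**
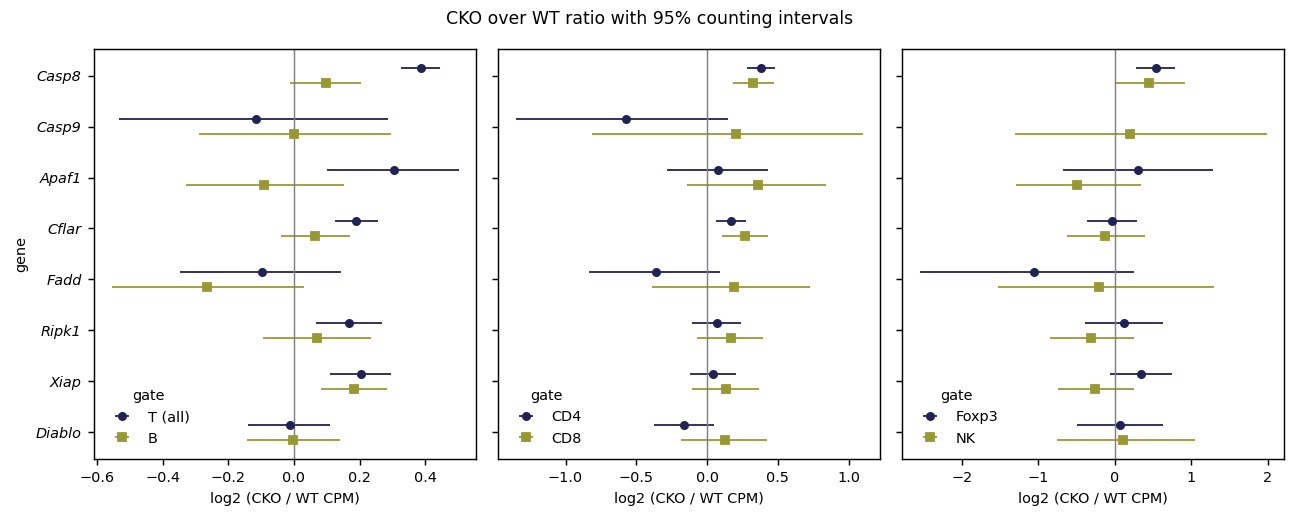
Log2 of the CKO over WT ratio of CPM (horizontal axes, each panel on its own scale) for the 8 genes (vertical axis) in pairs of gates, with exact 95% counting intervals as bars. Casp9 has no point in Foxp3 cells, where the CKO library held no UMI. Casp8 lies to the right of 0 in all 6 gates, with an interval that holds 0 in B cells.

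Set against all genes, most members lay above the middle in T cells and around it in B cells. In T cells 6.06% of genes had a higher ratio than Casp8, 9.18% than Apaf1, 19.2% than Xiap, 21.3% than Cflar and 25.4% than Ripk1, whereas Diablo (72.9%) and Fadd (86.0%) lay lower. In B cells the shares ran from 13.6% for Xiap to 94.4% for Fadd. Of the 8 members, 7 had a mean of at least 5 CPM in T cells, all but Casp9, and 8 did in B cells. In T cells Casp8 and Apaf1 (2 of 7) were at least 1.2-fold higher in CKO, against 12% of the 8702 genes at this floor, and none was at least 1.2-fold lower, against 4.26%. In CD4 cells 1 of 7 (Casp8) was higher, against 10.8% of genes, and 1 (Fadd) lower, against 8.20%. In CD8 cells 3 of 7 (Casp8, Apaf1 and Cflar) were higher, against 24.6% of genes, and none lower, against 8.02%. In B cells none was higher, against 6.38%, and 1 of 8 (Fadd) was lower, against 5.71%. No member was 1.5-fold apart in these 4 gates, against 2.52%, 1.73%, 5.54% and 0.765% of genes higher and 0.931%, 1.83%, 1.68% and 1.53% lower in T, CD4, CD8 and B cells. The median log2 ratio of the members was 0.19 in T cells, where that of all genes was 0.08, and 0.03 in B cells, where that of all genes was also 0.03. All genes had a median of 0.11 in CD8 cells. Relative to it, no member was past 1.2-fold there, and in T cells Casp8 alone was.

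**Figure D3:**
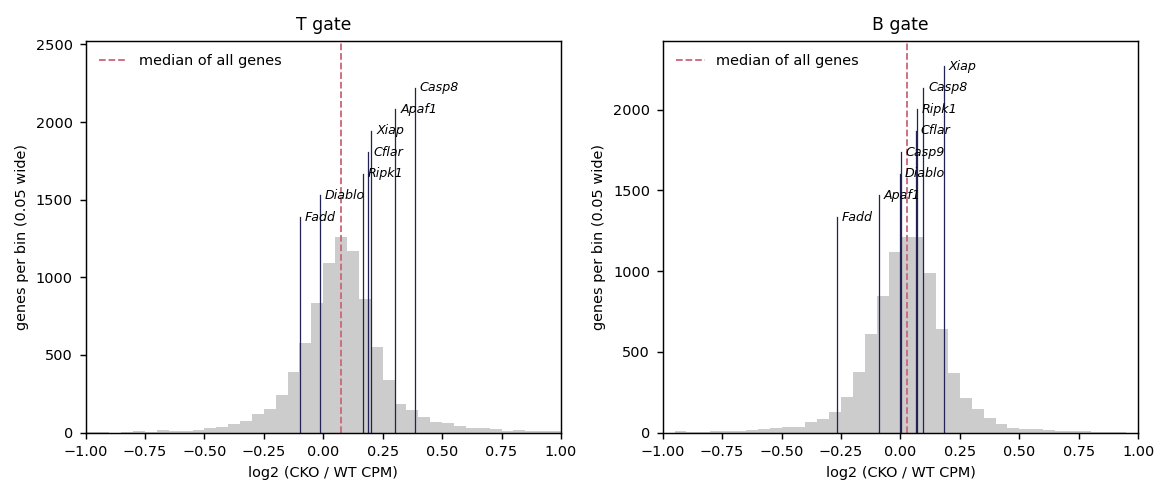
Number of genes (vertical axis, bins 0.05 wide) by log2 CKO over WT ratio (horizontal axis) among genes with a mean of at least 5 CPM in T cells (left) and B cells (right); lines mark the members past this floor and the dashed line the median of all genes. In T cells Casp8 lies in the upper tail at 0.39, while in B cells the members lie between -0.27 and 0.18.

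Interferon-response transcripts were found in a larger share of CKO than of WT cells, among both T and B cells. A UMI of Ifit1, Ifit3 or Rsad2 was held by 43.1% of WT and 54.7% of CKO T cells, with median depths of 6518 and 5947 UMIs, against 6176.5 and 5622 UMIs in cells without one. In B cells the shares were 23.3% and 30.7%. This split of the cells was chosen after seeing the data, and a cell without such a UMI is not shown to lack the transcripts.

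Casp8 was higher in T cells with such a UMI in both libraries. In WT it stood at 142 CPM in cells with and 101 CPM in cells without, a ratio of 1.41 (1.34 to 1.48), and in CKO at 187 and 116 CPM, a ratio of 1.61 (1.502 to 1.73). B cells gave the same direction, 1.29 (1.12 to 1.49) in WT and 1.23 (1.13 to 1.33) in CKO. Between the libraries, the CKO over WT ratio of Casp8 was 1.15 (1.07 to 1.23) among T cells without such a UMI and 1.32 (1.25 to 1.39) among those with one. Among cells without, it was 1.16 (1.04 to 1.30) in CD4, 1.07 (0.884 to 1.29) in CD8 and 1.12 (0.862 to 1.44) in Foxp3 cells, and in Trdc cells it turned to 0.952 (0.603 to 1.55). The ratio was thus smaller among T cells without a UMI of these 3 genes. Within CD8 and Foxp3 cells it was then inside counting error, from 129 and 109 CKO UMIs against 461 and 268 without this restriction. In Trdc cells it was inside counting error with or without this restriction. The part of the interferon response in the Casp8 levels was not tested.

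Among the other members the direction of the difference between these cells varied. In T cells, Cflar with over without such a UMI was 1.11 (1.05 to 1.17) in WT and 1.17 (1.09 to 1.27) in CKO. Casp9 went the other way, at 0.601 (0.434 to 0.826) in WT and 0.716 (0.436 to 1.17) in CKO. Diablo was at 0.975 (0.887 to 1.07) and 0.878 (0.758 to 1.02). Apaf1 was level in WT, at 1.04 (0.885 to 1.23), but lower in CKO cells with such a UMI, at 0.713 (0.568 to 0.895). Its CKO over WT ratio was therefore 1.499 (1.24 to 1.81) among T cells without and 1.03 (0.835 to 1.26) among those with one, the reverse of the order for Casp8. In CKO CD8 cells Apaf1 stood at 6.46 CPM in cells with and 23.1 CPM in cells without such a UMI (0.280, 0.131 to 0.561). These levels rest on few counts, with 31 of the 43 Apaf1 UMIs of CKO CD8 cells in cells without.

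**Figure D4:**
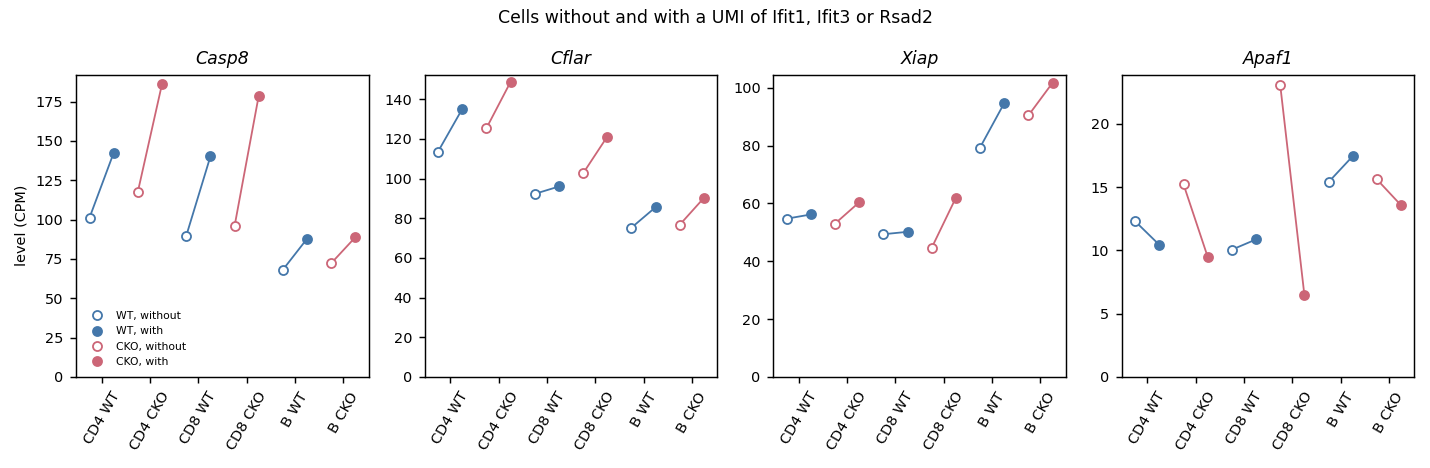
Levels in CPM (vertical axes, from 0) of Casp8, Cflar, Xiap and Apaf1 in cells without (open) and with (filled) a UMI of Ifit1, Ifit3 or Rsad2, by gate and library (horizontal axes; WT blue, CKO red); each point is the sum of 1 library, drawn without an interval. Casp8 is higher in cells with such a UMI in each of the 6 pairs. Apaf1 is lower in the 3 CKO pairs and in the WT CD4 pair. Its ratio of cells with over cells without has an interval that holds 1 in WT CD4 cells (0.848, 0.632 to 1.13). The same is true of CKO B cells (0.869, 0.712 to 1.06).

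Between T and B cells, Casp8, Cflar, Ripk1, Casp9, Xiap and Diablo differed beyond counting error in the same direction in both libraries. The share of all genes that did so was not counted, so this is not read as a trait of these genes. Casp8 was higher in T than in B cells, by 1.64 times in WT (1.53 to 1.75) and 1.998 times in CKO (1.90 to 2.10). Cflar (1.41 and 1.53) and Ripk1 (1.47 and 1.58) also had higher T cell levels, with intervals above 1 in both libraries. Casp9 was lower in T than in B cells, at 0.325 (0.259 to 0.408) in WT and 0.300 (0.229 to 0.388) in CKO, as were Xiap (0.641 and 0.649) and Diablo (0.759 and 0.752). Fadd (0.830 and 0.932) did not differ beyond its intervals, and Apaf1 was lower in T cells in WT only (0.719, 0.613 to 0.847, and 0.946, 0.818 to 1.09).

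NK cells were highest for some members. Apaf1 levels there were 41.1 CPM (20 UMIs) for WT and 29.1 CPM (42 UMIs) for CKO, above T and B cells in both libraries. Ripk1 stood at 84.2 and 67.9 CPM there, also above both, and Xiap at 103 and 85.9 CPM, above T cells but not apart from B cells. For Casp8 the order was T and NK cells, which could not be told apart, above B cells. Among T cell subsets, Foxp3 cells exceeded CD4 cells in Casp8 (CD4 over Foxp3 0.770 in WT and 0.691 in CKO) and in Xiap (0.810 and 0.658), and CD4 exceeded CD8 cells in Cflar (1.30 and 1.22). Foxp3 cells also held more of the cycling markers than CD4 cells, in sum 164 CPM for WT and 355 CPM for CKO, and the part of cycling in these levels was not tested.

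B cells gave 18.2% of the UMIs of kept WT cells and 53.3% of those of CKO. Over all kept cells Casp9 had a ratio of 1.55 (1.34 to 1.78), from 4.97 and 7.69 CPM, whereas its intervals in T cells and in B cells both held 1. With the shares of T, B and other cells held as in WT it was 0.993. Casp8, conversely, was level over all kept cells, at 109.7 and 111 CPM (1.01, 0.980 to 1.05), and had a ratio of 1.27 with the make-up held equal. Xiap went from 1.32 to 1.12, Cflar turned from 0.959 to 1.11, and Ripk1 from 0.966 (0.917 to 1.02) to 1.12. A level over all cells, as a bulk sample would give, thus carried the make-up of the suspension.

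Of 45 other genes of these pathways (death receptors and ligands, adaptors, ubiquitin editors, other caspases and necroptosis genes), 38 had a mean of at least 5 CPM in T cells. In T cells 7 of them were at least 1.2-fold higher in CKO and none lower, against 12% and 4.26% of all genes, and their median log2 ratio was 0.09. Among those past the floor, the death ligand gene Fasl had the highest ratio, 2.25 times (1.87 to 2.70), from 243 UMIs or 4.61 CPM in WT and 231 UMIs or 10.4 CPM in CKO, and it reached the floor through the CKO library. Below the floor, 2 listed genes had higher ratios. The 6 NK cell markers, none at 0, summed to 375 CPM among WT and 491 CPM among CKO T cells. Gzma went from 21.1 to 148 CPM, Ncr1 from 1.69 to 4.99 CPM and Klrb1c from 2.35 to 6.87 CPM. Nkg7 (292 and 281 CPM), Prf1 (31.0 and 29.9 CPM) and Eomes (26.3 and 20.6 CPM) were lower in CKO. The part of cytotoxic cells in the Fasl level was not tested. The cytokine genes Tnf (5.47 and 8.13 CPM; 1.49, 1.23 to 1.80) and Lta (15.1 and 22.0 CPM; 1.46, 1.30 to 1.63) and the death ligand gene Tnfsf10 (24.8 and 35.3 CPM; 1.43, 1.30 to 1.56) followed. At the other end, Cradd (0.907), Sharpin (0.909), Htra2 (0.914) and Bid (0.919) were all within 1.2-fold.

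In B cells 38 of the 45 genes also passed the floor, with 4 at least 1.2-fold higher and 3 lower, against 6.38% and 5.71% of all genes, and a median of 0.06. The lowest was the death receptor gene Fas, whose ratio was 0.458 (0.356 to 0.590), from 120 UMIs or 9.25 CPM in WT and 139 UMIs or 4.24 CPM in CKO. In B cells Fas reached the floor through the WT library. In T cells it stood at 22.4 and 24.9 CPM. Tnfaip3, a ubiquitin-editing inhibitor of NF-κB (20.5 and 15.4 CPM; 0.752, 0.647 to 0.876), and Traf1 (23.4 and 18.1 CPM; 0.772, 0.671 to 0.889) were also lower. The 4 cycling markers summed to 141 CPM for WT and 41.3 CPM for CKO B cells, the 4 plasma cell markers Jchain, Sdc1, Xbp1 and Prdm1 to 910.1 and 239 CPM, none at 0, and their part in these ratios was not tested. Among the genes higher in CKO were Xaf1, whose product binds XIAP (84.7 and 124 CPM; 1.46, 1.36 to 1.56), Tnf (4.94 and 6.92 CPM) and the nucleic acid sensor gene Zbp1 (94.4 and 120.2 CPM; 1.27, 1.19 to 1.36). Of these, Tnf reached the floor through the CKO library. Xaf1 (109 and 148 CPM) and Zbp1 (159 and 226 CPM) were at least 1.2-fold higher in CKO T cells as well.

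**Figure D5:**
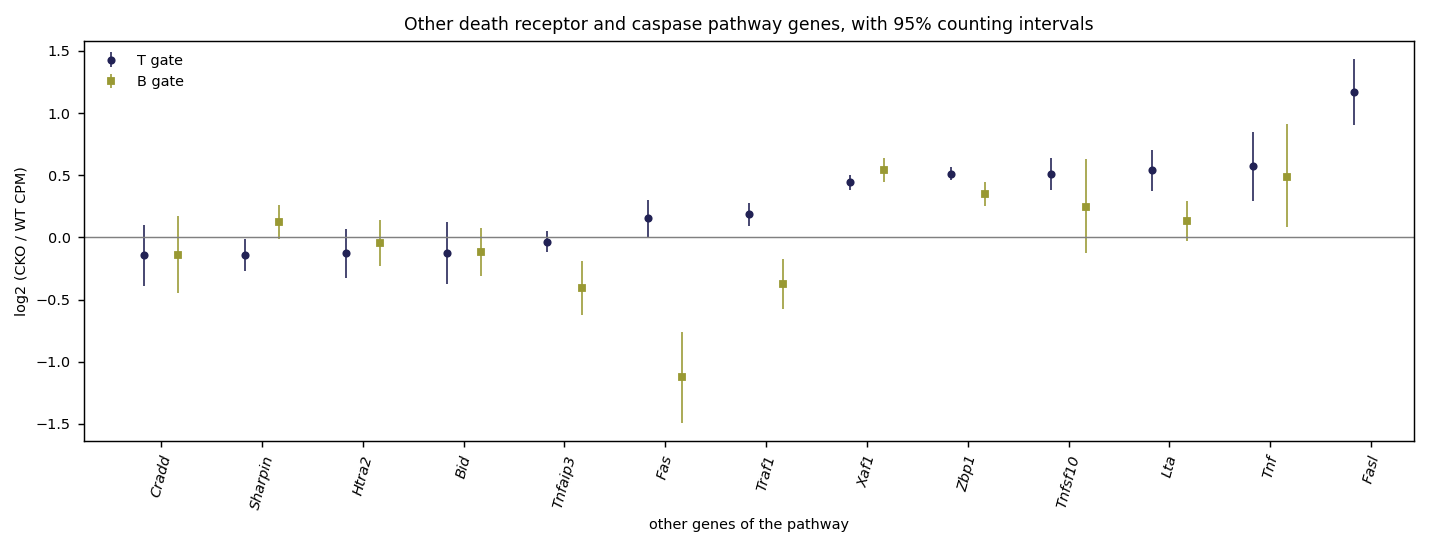
Log2 of the CKO over WT ratio of CPM (vertical axis) for the other genes of the pathway named in the text, where their mean was at least 5 CPM (horizontal axis, ordered by the T cell ratio), in T cells (circles) and B cells (squares), with exact 95% counting intervals. Fasl is highest in T cells (2.25 times), where it reached the floor through the CKO library. Fas is lowest in B cells (0.458), where it reached the floor through the WT library.

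Across the 12 profiles formed by the CD4, CD8, Foxp3, Trdc, B and NK gates of both libraries, the genes most like Casp8 by Pearson's r of log2 (CPM + 1) were Ncoa7 (0.96) and Rspry1 (0.95), among 7402 genes compared. For Cflar they were Mthfd2 (0.96) and Rasgrp1 (0.94), for Ripk1 Mob3a (0.98) and Ctsd (0.97), for Xiap Irak2 (0.97) and Gabarap (0.945), and for Apaf1 Rnasek (0.98) and Ankra2 (0.975). The sparser members had Ccdc71l (0.95) and Tnrc18 (0.93) for Casp9 and Ttf2 (0.92) and Sharpin (0.91) for Fadd, and Diablo had Crtc2 and Cd200 (both 0.90). The profiles share 2 libraries and differ in depth, and these values are a description of the pattern over cell types only.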

How the data were processed

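Single-cell libraries of lymph node immune cells were made with a droplet 3′ kit per the labels' protocols, 1 per genotype. What the authors deposited are raw UMI counts of each gene in each barcode, whole numbers with no normalization. Cell Ranger appears as version 6.0.2 in the file headers and as 5.0.0 in the submitters' processing notes, which also name mm10 and Seurat 4.0.3. The WT library held 12769 barcodes and 84813609 UMIs (median 5984), the CKO library 13754 and 76200586 (median 4549).

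Barcodes needed at least 500 UMIs and 200 genes, with a mitochondrial share of at most 10%. Doublets were scored with Scrublet in Scanpy 1.11.5 and the highest scores left out at 0.8% per 1000 barcodes (1304 WT and 1513 CKO barcodes). This left 11169 WT and 11804 CKO cells. Counts were summed per gate and library and scaled to CPM. CPM have exact Poisson, ratios exact conditional binomial and shares exact binomial (Clopper-Pearson) 95% intervals. Counts past a fold use genes with a mean of at least 5 CPM. The members, lists and gates were chosen with earlier results of these data known. Named by rule were the 8 members, the 4 highest and 4 lowest other pathway genes in T and in B cells at this floor, 2 genes per member by likeness, Rpa1 and markers. The T cell values of Fas, Xaf1 and Zbp1 were named in addition, after being seen. Some genes that the rule names are not reported here. Positions come from GENCODE M21 (99.8% of 32285 identifiers found). The intervals of ratios were tried on simulated Poisson counts, which hold no spread between cells or animals. Alternatives were other cell filters, scalings, thinning, gates, floors and folds.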

Additional observations from a re-analysis of the deposited data

How the results depend on the processing

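No paired analysis was possible because each genotype has 1 library, and no library could be left out. The median log2 ratio of the 7 members past the floor in T cells, 0.19, was 0.11 when ribosomal protein and mitochondrial genes were left out of the totals, 0.11 with scaling by the median ratio of all genes, and 0.12 in cells without a UMI of Ifit1, Ifit3 or Rsad2. In CD4 cells the median, 0.07, turned to -0.03 in cells without these UMIs. The number of members past 1.2-fold in T cells, 2, was 1 under each of these 3 settings and 1 with a floor of 20 CPM. That member was Casp8, except in cells without the interferon UMIs, where it was Apaf1 (log2 ratio 0.58) and Casp8 stood at 0.20. In CD8 cells 3 became 1 without ribosomal protein and mitochondrial genes, 0 with scaling by the median ratio, 1 with thinned cells and 1 in cells without the interferon UMIs. That member was Apaf1 in the first (0.26) and last (1.197) of these and Casp8 with thinned cells (0.28). A floor of 20 CPM gave 1 in place of 2 in CD4 cells and 0 in place of 1 in B cells, and at 1.5-fold all 4 counts were 0. Of the other pathway genes past 1.2-fold, 7 in T and 7 in B cells, 4 and 3 were counted at 20 CPM. The log2 ratio of Casp8 in T cells, 0.39, ranged from 0.20 to 0.47 over 9 alternatives, and in B cells, 0.10, from 0.05 to 0.10 over 8. With the make-up of T, B and other cells held equal, chosen after seeing the data, the ratios over all kept cells turned for Casp9 (0.993), Cflar (1.11), Ripk1 (1.12) and Diablo (0.999). Differences between mice, sex, age or capture day cannot be told apart from genotype with 1 library each. Sums in Foxp3, Trdc and NK cells often rest on under 50 UMIs.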

Other observations

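Barcodes above the mitochondrial limit, left out of all comparisons, held few UMIs of the members. In the T gate there were 54 such barcodes in WT and 35 in CKO. Ripk1 had 4 and 8 UMIs there, 78.0 CPM of non-mitochondrial UMIs in WT (21.3 to 199.8) and 301 CPM in CKO (130 to 594), against 49.1 and 55.1 CPM in kept T cells. Cflar had 11 and 8 UMIs, 215 and 301 CPM, against 113 and 128 CPM. Apaf1 had 3 and 4 UMIs, 58.5 CPM (12.1 to 171) and 151 CPM (41.0 to 386), against 11.8 and 14.5 CPM. Casp8 had 5 and 2 UMIs, 97.6 and 75.3 CPM, lower than the 123 and 160.1 CPM of kept T cells, which its intervals held. In the B gate, with 25 and 80 such barcodes, Casp8 had 1 and 9 UMIs and Xiap 2 and 12, with intervals that held the levels of kept B cells.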
